A study of Homo sapiens with 4 samples.

Results

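The keratin gene clusters of chromosomes 12q and 17q were examined as methylated regions, that is, as peaks of 5-methylcytosine immunoprecipitation (MeDIP-seq) in C42B prostate cancer cells. Members were chosen by position alone. They are the peaks overlapping 52.55 to 53.36 Mb of chromosome 12, which holds the type II keratins, and 38.8 to 39.8 Mb of chromosome 17, which holds the type I keratins and the keratin-associated proteins (hg19). The knockout list held 154 such peaks of 296521, and the control list held 131 of 261657. The knockout cells carried a guide RNA against PKCλ/ι (label PKCl/i KO, sgPKCl/i) and the control cells a guide called sgC, labelled WT. PKCλ/ι is an atypical protein kinase C, and C42B is an androgen-independent line derived from LNCaP. All cells were untreated and were harvested 48 h after plating at about 70% confluency. Each genotype gave 1 immunoprecipitated and 1 input library, so no difference below has a replicate check. The labels do not say whether the knockout was 1 clone or a pool.

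Keratins are the intermediate filament proteins of epithelia, and a filament is built from pairs of 1 type I and 1 type II chain. In the prostate, KRT5 (type II) and KRT14 (type I) mark basal cells, and KRT8 (type II) and KRT18 mark luminal cells. KRT18 is a type I keratin whose gene lies beside KRT8 at the end of the type II cluster. Keratin-associated proteins cross-link the hair keratins in the hair shaft. The antibody used here binds methylated cytosine in denatured fragments, so the signal depends on how many CpG dinucleotides a fragment holds as well as on how many are methylated. The files hold no expression, so the labelled cell type could not be checked against these markers.

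The keratin and keratin-associated protein promoters with a RefSeq entry held few CpG dinucleotides. The letters CG were counted, which read the same on both strands. The RefSeq gene table lists 89 protein-coding keratin and keratin-associated protein genes from KRT80 to KRT18 and from KRT222 to KRT17, and 67 of them matched a promoter of the RefSeq promoter table (GRCh38.p14). Over the 250 bases before the start, the median CpG count was 2.00 for 14 of the 27 genes of the type II cluster, 2.00 for 20 of the 28 type I keratins and 1.00 for 33 of the 34 keratin-associated proteins, against 11.0 over all 35116 promoters of the table. The genes without an entry include KRT18, KRT19, KRT14, KRT7, KRT80, KRT13, KRT15, KRT16, KRT17 and KRT6A to KRT6C, so the counts do not cover these. None of the 67 held 10 or more CpGs, while 52.2% of all promoters did. Of the 67, 17 (25.4%) held none at all, against 6.06% of all promoters. The promoters of KRT5, KRT8 and KRTAP4-1 are printed from RefSeq because they run from a high CpG count among keratin promoters to none, with each CpG in capitals.
KRT5, chr12:52520395-52520644, minus strand: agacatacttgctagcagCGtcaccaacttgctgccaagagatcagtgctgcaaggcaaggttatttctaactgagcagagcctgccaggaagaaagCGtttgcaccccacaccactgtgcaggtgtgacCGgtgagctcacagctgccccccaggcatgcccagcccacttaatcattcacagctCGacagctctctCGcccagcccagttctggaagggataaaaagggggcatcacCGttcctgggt
KRT8, chr12:52926470-52926719, minus strand: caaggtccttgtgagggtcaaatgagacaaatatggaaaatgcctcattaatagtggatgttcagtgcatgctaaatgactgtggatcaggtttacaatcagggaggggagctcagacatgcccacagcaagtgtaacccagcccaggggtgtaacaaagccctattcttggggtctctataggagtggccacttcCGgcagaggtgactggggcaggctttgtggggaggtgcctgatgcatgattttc
KRTAP4-1, chr17:41184912-41185161, minus strand: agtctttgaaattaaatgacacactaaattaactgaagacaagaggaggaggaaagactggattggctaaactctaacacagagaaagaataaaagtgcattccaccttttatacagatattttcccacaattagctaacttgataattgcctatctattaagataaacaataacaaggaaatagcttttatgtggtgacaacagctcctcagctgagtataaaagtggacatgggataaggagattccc
These coordinates are GRCh38.p14 and cannot be set beside the hg19 positions of the peaks. KRT5 had 6 CpGs, while the highest of the 67 was 7, at KRT75, and 61.9% of all promoters held at least as many as KRT5. KRT8 had 1 CpG at the start counted. Other starts of the gene were not examined, so the count may not hold for them. KRTAP4-1, one of the ultrahigh-sulfur hair proteins, had 0. CpG counts at or below that of KRT8 were found in 14.7% of all promoters.

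Methylated regions were about as dense in the type II cluster as elsewhere on its chromosome and sparse in the type I cluster for its chromosome. The type II span held 89 peaks in the knockout (109.9 per Mb, exact Poisson 95% interval 88.2 to 135, which like every interval of a count, share or single ratio here covers counting error only) and 76 in the control (93.8 per Mb, 73.9 to 117). The rest of chromosome 12 held 114 per Mb in the knockout and 100.3 in the control. Its 1 Mb tiles that hold a peak had a median of 78.5 peaks in the knockout and 69.0 in the control. Their quartiles were 36.8 and 163 in the knockout and 30.0 and 143 in the control. Per Mb, the type II span thus lay above the median tile and between the quartiles in both genotypes. The type I span held 65 peaks in the knockout (65.0 per Mb, 50.2 to 82.8) and 55 in the control (55.0 per Mb, 41.4 to 71.6). The rest of chromosome 17 held 218 per Mb in the knockout and 201 in the control, so the type I span lay below the rest of its chromosome in both genotypes. Over the 1 Mb tiles of chromosome 17 that hold a peak, the quartiles were 129.5 and 308 peaks in the knockout and 108 and 285 in the control, above both counts of the type I span. Peaks covered 5.82% of the type II cluster in the knockout and 4.68% in the control, and 3.18% of the type I cluster in the knockout and 2.69% in the control.

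The knockout immunoprecipitate was the deeper one. Its library mean, taken as the lowest local background in the list, was 4.42 against 2.92 in the control, a ratio of 1.51. Levels are therefore given as pileup, the number of fragments over a summit, and as multiples of this mean. The median keratin peak stood at 8.14 times the mean in the knockout and 7.53 times in the control in the type II span, and at 7.46 times in the knockout and 8.21 times in the control in the type I span. Over the whole lists these medians were 8.14 in the knockout and 8.55 in the control. Strong peaks, those with a −log10 q of at least 10, made up 61.8% of knockout and 44.7% of control peaks in the type II span, against 74.5% of knockout and 57.0% of control peaks over the whole lists. In the type I span the shares were 63.1% in the knockout and 54.5% in the control.

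**Figure D1:**
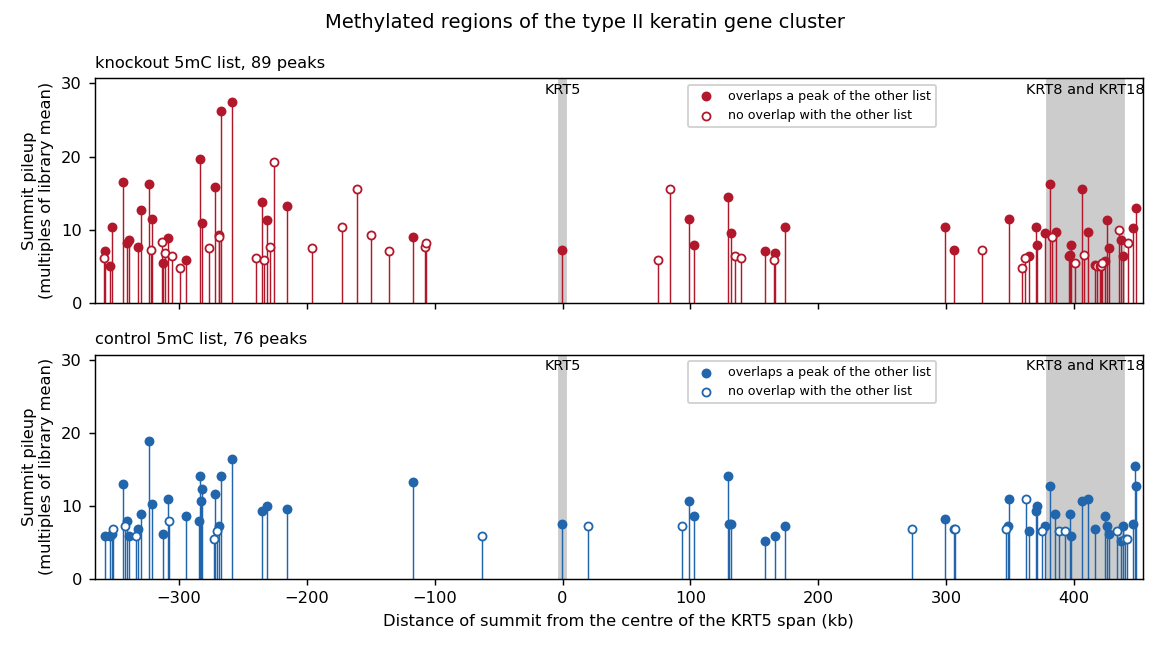
Summit pileup in multiples of the library mean for each methylated region of the type II span, against distance from the centre of the KRT5 span in kb, in the knockout list (89 peaks, upper panel) and the control list (76 peaks, lower panel). Filled points overlap a peak of the other list and open points do not; grey bands mark KRT5 and the KRT8 with KRT18 span. Peaks crowd at both ends of the cluster and thin out on both sides of KRT5 in both genotypes.

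Within the type II cluster the methylated regions were densest toward its ends. Below KRT5, where the gene order runs from KRT80 and KRT7 through the hair keratins to KRT75 and the KRT6 genes, there were 42 knockout and 32 control peaks in 358 kb. The 376 kb between KRT5 and KRT8 hold the keratins of the hair root sheath and of cornified and mucosal epithelia (KRT71 to KRT78) and had 22 knockout and 23 control peaks. The 60.0 kb of KRT8 and KRT18 had 21 knockout and 15 control peaks (13.0 to 32.1 in the knockout, 8.40 to 24.7 in the control). Peaks covered 16.4% of that span in the knockout and 14.3% in the control. The densest 50 kb bins were 53.30 to 53.35 Mb in the knockout, with 18 peaks (12 in the control), and 52.55 to 52.60 Mb in the control, with 14 peaks in each genotype. The longest stretch without a peak of either list was 98.5 kb, from 53085476 to 53183927. Another, of 62.5 kb, ended at the KRT5 peak, from 52847881 to 52910379.

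The type I cluster was split by a long stretch nearly free of methylated regions. From 39.15 to 39.55 Mb, 8 neighbouring bins of 50 kb held 3 knockout and 3 control peaks in 400.0 kb, while the rest of the cluster held 62 in the knockout and 52 in the control. This stretch was picked out after its values were seen. The 3 regions were the same in both genotypes. Their pileups were 22, 26 and 28 in the knockout and 20, 20 and 16 in the control, from the lowest position to the highest. Each lies under the median pileup of its list in the cluster, 33.0 in the knockout and 24.0 in the control. The longest gap of the cluster began in this stretch and ran for 226 kb, from 39345148 to 39570773, and another of 111 kb lay just below it. In the RefSeq order the keratin-associated protein genes fill the middle of this cluster, between KRT40 and the hair keratin KRT33A. The hg19 place of each of them was not determined here, and CpG content, mappability and methylation cannot be told apart in a stretch without a peak. The densest bin was 39.65 to 39.70 Mb, with 9 peaks in the knockout and 9 in the control, where 39.75 to 39.80 Mb also held 9 control peaks.

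**Figure D2:**
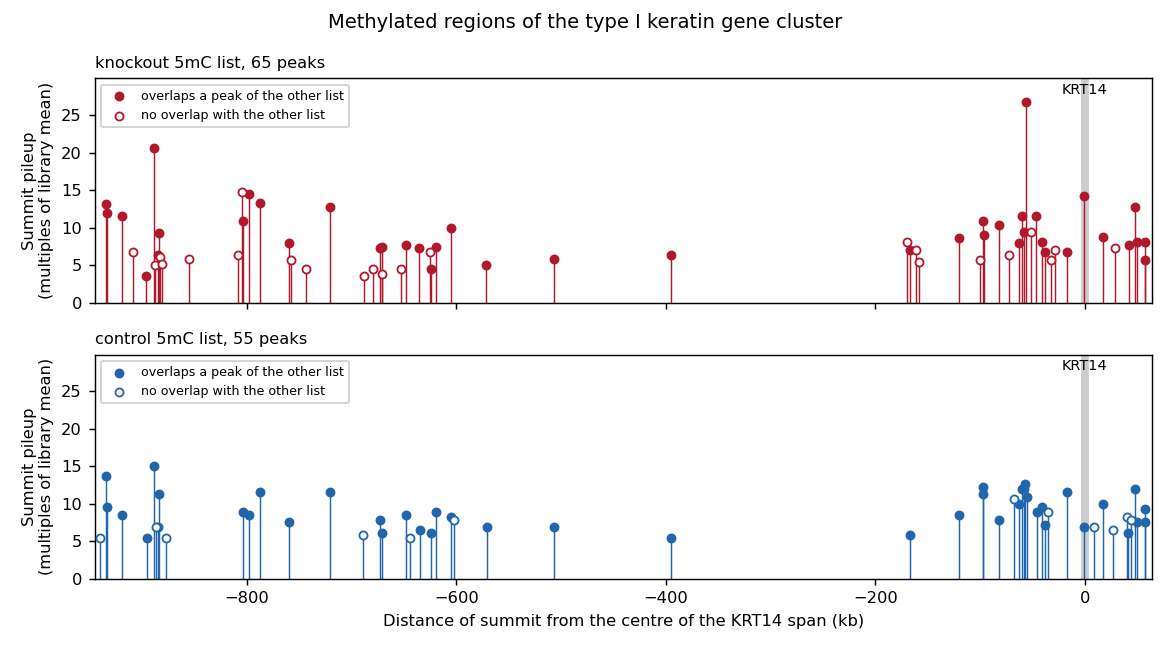
Summit pileup in multiples of the library mean for each methylated region of the type I span, against distance from the centre of the KRT14 span in kb, in the knockout list (65 peaks, upper panel) and the control list (55 peaks, lower panel). Filled points overlap a peak of the other list, open points do not, and the grey band marks KRT14. The middle of both panels is nearly empty, with 3 peaks per list in 400.0 kb.

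KRT5 and KRT14, the basal pair, each carried 1 methylated region per genotype, with close depth-scaled levels at KRT5 and unequal ones at KRT14. At KRT5 the pileup was 32 (21.9 to 45.2) in the knockout and 22 (13.8 to 33.3) in the control, which is 7.23 times the library mean in the knockout and 7.53 times in the control. Depth-scaled, the knockout over control ratio was 0.961 (0.541 to 1.74), so no difference was detectable at this depth. The fold enrichment was 2.91 in the knockout and 2.73 in the control, below the medians of 4.41 (knockout) and 4.56 (control) of the type II span. The local background was 2.34 times the mean in the knockout and 2.54 times in the control. The region ended 3.31 kb (knockout) and 3.28 kb (control) below the upper end of the KRT5 span, the end at which this minus-strand gene starts. No peak of either list lay in that remainder, the side on which the gene's promoter lies.

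At KRT14 the pileup was 63 (48.4 to 80.6) in the knockout and 20 (12.2 to 30.9) in the control, or 14.2 times the mean in the knockout and 6.84 times in the control. The depth-scaled ratio was 2.08 (1.24 to 3.63), the highest of all 88 keratin pairs. This interval does not allow for the number of pairs looked at. Fold enrichment was 4.83 in the knockout and 2.87 in the control, and −log10 q was 22.6 in the knockout and 4.09 in the control. The region ran from 39739790 to 39740266 in the knockout and from 39739798 to 39740097 in the control. The local background was also higher, at 2.77 times the mean in the knockout and 2.16 times in the control. The part of background in this value was not tested. KRT14 resembles KRT16 and KRT17 closely in sequence, and how reads with several placements were treated is not given in the sources used here.

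**Figure D3:**
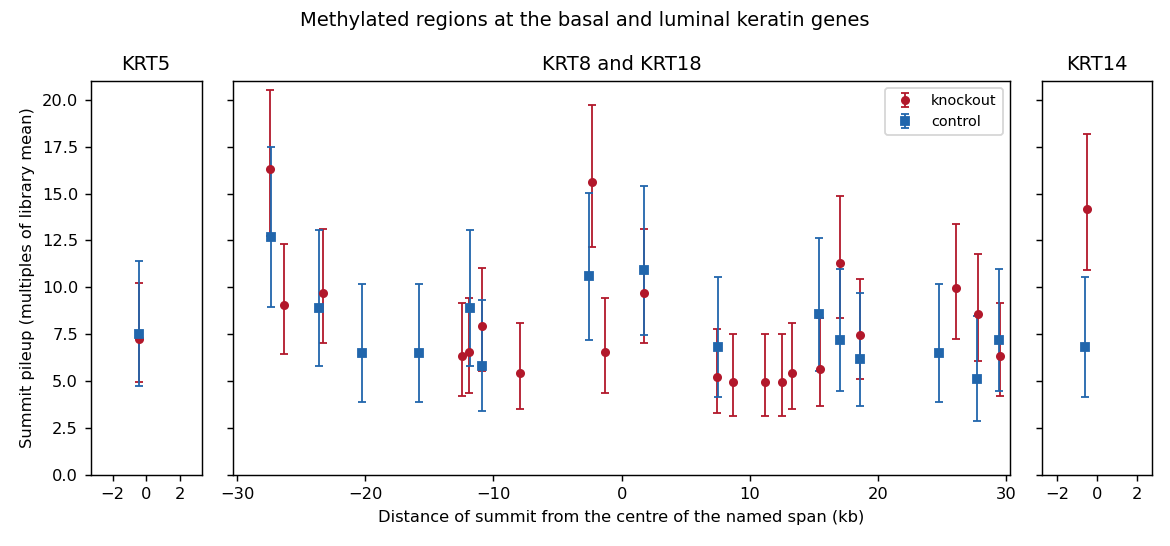
Summit pileup in multiples of the library mean for the methylated regions of the KRT5, KRT8 with KRT18, and KRT14 spans, against distance from the centre of each span in kb; circles are knockout, squares are control, and bars are exact Poisson intervals covering counting error only. At KRT5 the bars overlap, around 7.23 in the knockout and 7.53 in the control, and those at KRT14 stand apart at 14.2 in the knockout and 6.84 in the control.

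KRT8 and KRT18, the luminal pair, lay in a dense row of regions whose depth-scaled levels overlapped between genotypes. Pileups there ran from 22 to 72 in the knockout, with 10 of 21 peaks strong (47.6%, against 74.5% of the whole list), and from 15 to 37 in the control, with 8 of 15 strong (53.3%, against 57.0% of the whole list). The tallest region of both lists in this span was at 53292200 to 53293182 in the knockout, with a pileup of 72 there and 37 in the control. The next in the knockout, at 53317185, had 69 against 31 in the control and the highest fold of the type II span, 11.1 against 6.30. The region at 53336830 had 50 in the knockout and 21 in the control. A knockout-only region at 53345880 had 44 in the knockout, with a fold of 5.27. The regions at 53296190 and 53321526 each had 43 in the knockout, against 26 and 32 in the control. Across the 11 pairs of this span the median log2 ratio was 0.28 (-0.40 to 0.65), with 7 pairs higher and 4 lower in the knockout. The interval of this median includes 0. Of the knockout peaks 13 of 21 (61.9%, 38.4 to 81.9) overlapped a control peak, against 76.1% of the whole list. Of the control peaks 12 of 15 (80.0%, 51.9 to 95.7) overlapped a knockout peak, against 87.9% of the whole list. A group of 4 weak knockout-only peaks between 53328462 and 53333400 had pileups of 22, 22, 22 and 24 in the knockout, and 22 was the lowest pileup of its list in the span.

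A smaller share of type II keratin regions than of all regions was listed in both genotypes. In the type II span 59.6% (48.6 to 69.8) of knockout peaks overlapped a control peak, against 76.1% of the whole knockout list. In the other direction 75.0% (63.7 to 84.2) of control peaks overlapped a knockout peak, against 87.9% of the whole control list. In the type I span the shares were 64.6% (51.8 to 76.1) in the knockout and 78.2% (65.0 to 88.2) in the control, and the whole-list value lay at the upper bound in the knockout and inside the interval in the control. The shared share was lower among weak peaks than among strong ones in both genotypes. Among weak type II peaks 32.4% (17.4 to 50.5) of 34 in the knockout and 57.1% (41.0 to 72.3) of 42 in the control were shared, against 49.6% of all weak knockout peaks and 76.2% of all weak control peaks. Among strong type II peaks the shares were 76.4% (63.0 to 86.8) in the knockout and 97.1% (84.7 to 99.9) in the control, against 85.1% of all strong knockout peaks and 96.8% of all strong control peaks. With the knockout list shortened to the length of the control list, 62.0% (50.4 to 72.7) of knockout and 69.7% (58.1 to 79.8) of control peaks of the type II span were shared, against 80.0% of the whole knockout list and 82.2% of the whole control list.

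**Figure D4:**
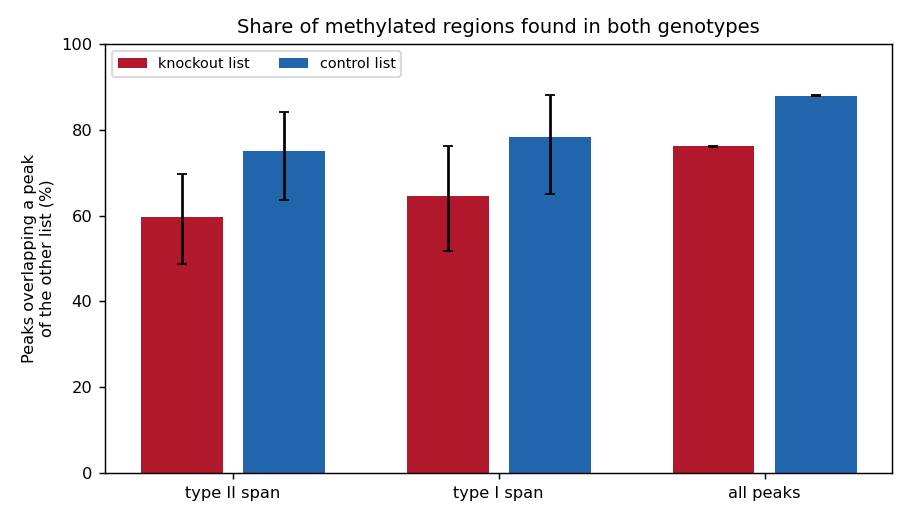
Percentage of methylated regions that overlap a region of the other genotype by at least 1 bp, in the type II span, the type I span and the whole lists, with knockout bars left of control bars and exact Clopper-Pearson intervals. In the type II span the knockout bar (59.6%) and the control bar (75.0%) are each lower than the whole-list bar of the same genotype (76.1% in the knockout, 87.9% in the control).

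Strong regions listed in 1 genotype only were more numerous in the knockout, in the keratin clusters as in the whole lists, where 32804 were knockout-only and 4835 control-only. In the type II span 13 of 55 strong knockout peaks (23.6%, 13.2 to 37.0) had no control counterpart, against 14.9% of all strong knockout peaks. There 1 of 34 strong control peaks (2.94%) had no knockout counterpart, against 3.24% of all strong control peaks. In the type I span it was 7 of 41 in the knockout (17.1%, 7.15 to 32.1) and 2 of 30 in the control (6.67%, 0.818 to 22.1). Both knockout intervals include the whole-list share, and the knockout library was the deeper one. With the knockout scaled to the control's depth and both lists of equal number, 7 of 35 strong knockout peaks of the type II span (20.0%, 8.44 to 36.9) still lacked a control peak, against 6.02% of all strong knockout peaks, which lies below that interval. For the control it was 1 of 34 in that span, against 5.33% of all strong control peaks. In the type I span it was 2 of 26 (7.69%, 0.946 to 25.1) for the knockout and 4 of 30 (13.3%, 3.76 to 30.7) for the control, so that there the control-only peaks were the more numerous, and both intervals include the whole-list shares.

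Several knockout-only regions of the type II cluster were high. The most enriched was at 52994938 to 52995384, between KRT5 and KRT8, where 69 fragments (53.7 to 87.3) made 15.6 times the mean and a fold of 7.64. At 52684787 to 52685370 the knockout pileup was 85 (67.9 to 105), 19.2 times the mean, over a background of 3.41 times the mean. At 52737891 it was 46 with a fold of 6.31, at 53353148 it was 36 with a fold of 5.56, and at 53293483, inside the KRT8 and KRT18 span, it was 40 with a fold of 5.40. All 5 were still strong after scaling to the control's depth. The regions at 53293483 and 53353148 had a control peak within 1000 bp, and the other 3 had none.

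A run of knockout-only regions lay below KRT5. From 52696069 to 52793555, a stretch of 97.5 kb, the control list held no peak and the knockout list held 5, of which 3 were strong. Their pileups were 33, 46, 69, 41 and 31 in the knockout, from the lowest position to the highest. The regions at 52737891 and 52749823 were still strong after scaling to the control's depth, with scaled pileups of 30 and 46. The run was noticed after the values were seen. Backgrounds ran from 1.46 to 3.19 times the mean in these 5 peaks. In the knockout 19 of 42 peaks below KRT5 (45.2%) stood over a background of more than 2 times the mean, and in the control 7 of 32 (21.9%), against 12.8% of the whole knockout list and 8.62% of the whole control list. Background moved in coarser steps in the knockout list, so the shares of the genotypes are not measured alike. The part of background in the run was not tested. Near-identical genes (KRT81 and KRT86, and KRT6A, KRT6B and KRT6C) lie on this side of KRT5.

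In the type I cluster the highest knockout-only region was at 38935660 to 38936209, where 65 fragments (50.2 to 82.8) made 14.7 times the mean, with a fold of 12.2 and a −log10 q of 48.9 over a background at the mean itself. A region of both lists began within 1000 bp of it, at 38936776 in the knockout (pileup 48) and 38936793 in the control (pileup 26). At 39570774, on the upper edge of the longest gap, the knockout pileup was 36 with a fold of 6.30. The other 3 named regions, at 38831464, 39114889 and 38931470, had knockout pileups of 30, 30 and 28. After scaling to the control's depth with equal numbers of peaks, the regions at 38935660 and 39570774 were still strong and these 3 were not. The control-only strong regions numbered 3 in the 2 clusters together. They lay at 53273249 on chromosome 12 (pileup 32 in the control, fold 5.03) and at 39138531 and 39672519 on chromosome 17 (23 and 31 in the control), named by their summits.

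Where a region was listed once in each genotype, pileup in library means was slightly higher in the knockout in the type II cluster. In the type I cluster it was level. By fold enrichment the type II pairs did not stand out from all pairs. Over 47 type II pairs the median log2 ratio of knockout to control levels, each in library means, was 0.22 (0.08 to 0.37). This interval is of the median and takes pairs as independent, although they are not replicates. The quartiles of the pairs were -0.14 and 0.45, with 32 pairs higher and 15 lower in the knockout. On the rest of chromosome 12 the median was 0.05 over 10756 pairs, and over all 206556 pairs it was 0.04. Over 41 type I pairs it was 0.01 (-0.15 to 0.20), with 21 higher and 20 lower, against 0.07 on the rest of chromosome 17. Local background was higher in the knockout as well in the type II pairs, with a median log2 ratio of 0.12. On the rest of chromosome 12 this background ratio was 0.05, and over all pairs it was 0.03. The median log2 ratio of fold enrichment, which allows for background, was 0.05 in the type II pairs. That fold ratio was also 0.05 on the rest of chromosome 12, and it was 0.04 over all pairs. Pairs over 1.5-fold higher in the knockout numbered 5 of 47 (10.6%) in the type II span and 2 of 41 (4.88%) in the type I span, against 5.14% of all pairs. Pairs over 1.5-fold lower numbered 1 of 47 (2.13%) in the type II span and 3 of 41 (7.32%) in the type I span, against 3.60% of all pairs.

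**Figure D5:**
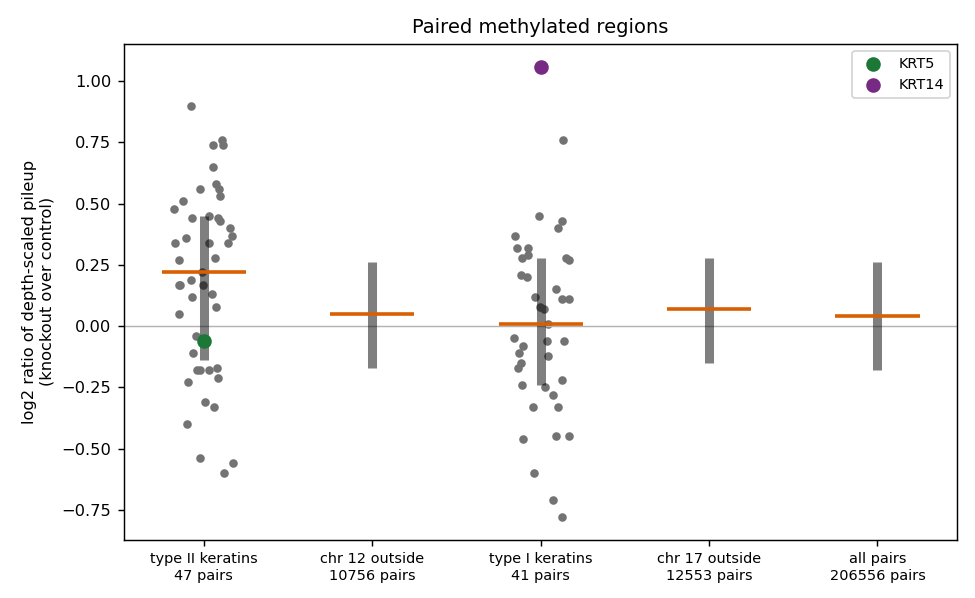
The log2 ratio (knockout over control) of summit pileup in library means, for each pair of overlapping regions in the type II span (47) and the type I span (41), with the rest of each chromosome and all pairs beside them. Points are pairs, orange lines medians and grey bars the range between quartiles; the KRT14 pair, at 1.06, is the highest and the KRT5 pair is at -0.06.

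The pairs with the highest ratios of the type II cluster lay near its ends. At 52643875 to 52644936 the pileup was 116 in the knockout and 41 in the control, a depth-scaled ratio of 1.87 (1.30 to 2.74). Fold enrichment there ran the other way, at 5.63 in the knockout and 6.62 in the control, and the background was 4.47 times the mean in the knockout and 1.83 times in the control. At 52651856 the pileup was 121, the highest of all keratin regions, in the knockout and 48 in the control, and folds were 9.92 in the knockout and 7.91 in the control. At 52558167 it was 46 in the knockout and 18 in the control. At 53347510, inside the KRT8 and KRT18 span, it was 38 in the knockout and 15 in the control. Those last ratios, 1.69 (0.960 to 3.09) and 1.67 (0.900 to 3.28), have intervals that include 1. At 52566562 the pileup was 73 in the knockout and 38 in the control, and the broad knockout region at 52626235 to 52628430, with 87, faced 3 control peaks of 23, 41 and 31. The tallest control region, at 52587041, had 72 in the knockout and 55 in the control, or 16.3 times the mean in the knockout and 18.8 times in the control. At 53358676 a knockout region with a pileup of 57 overlapped a control region of 45. The lowest ratios were 0.661 (0.364 to 1.20) at 53335288, 0.678 at 52793608 and 0.687 at 52615983, and all 3 intervals included 1.

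In the type I cluster the tallest region of the knockout lay below KRT14, at 39683224 to 39685502. It was 2279 bp long and reached a pileup of 118 (97.7 to 141), or 26.7 times the mean. It overlapped 2 control peaks of 37 and 32, or 12.7 and 10.9 times the mean. Background was 2.98 times the mean in the knockout, and 1.52 and 1.30 times at these control peaks. At 38851097 the pileup was 91 in the knockout and 44 in the control, the highest of the control in this cluster. Folds there were 13.8 in the knockout and 8.86 in the control, with a depth-scaled ratio of 1.37 (0.943 to 2.01). At 38942145 it was 64 in the knockout and 25 in the control, with a ratio of 1.69 (1.05 to 2.80) and folds of 11.4 in the knockout and 6.63 in the control. At the control's other tall regions the interval of the ratio included 1. The pileup was 58 in the knockout and 40 in the control at 38805369, 40 in the knockout and 36 in the control at 39643362, and 51 in the knockout and 35 in the control at 39679973. The lowest ratios were 0.583 (0.345 to 0.982) at 39723450, with a pileup of 30 in the knockout and 34 in the control, 0.612 (0.341 to 1.10) at 39798052, and 0.661 (0.309 to 1.41) at 38844313.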

How the data were processed

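Per the submitters' processing notes, reads were checked with FastQC, aligned with BWA to hg19 and passed to MACS2 for peak calling. For versions, parameters, duplicates and reads with several placements, the treatment is not given in the sources used here. Each deposited list was called on 1 immunoprecipitate, and whether the input library entered the call was not determined here. The deposited pileup is a signal, the whole number of fragments over the summit, and was not scaled between libraries by the authors. The deposited fold enrichment is a ratio of pileup plus 1 to local background plus 1, and the −log10 p and −log10 q deposited with each peak come from the caller. The lowest −log10 q was 2.00 in the knockout list and 2.01 in the control list. Each list was tied to a sample through the genotype and 5mC named on it, and positions are 1-based hg19.

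Local background was worked back from pileup and fold. In the keratin spans many peaks shared a background, such as 4.71, 5.65, 6.59 or 7.53 in the knockout. In the control such values included 3.34, 3.71, 4.08 and 4.45. Background thus moved in coarser steps in the knockout list, which limits comparisons of background and fold between genotypes. The source of these steps was not tested. The lowest background of a list (4.42 in the knockout, 2.92 in the control) equals, for MACS2, the average pileup over the genome. It served as the depth scale, called the library mean here, since library totals are not listed. A peak counted as strong at a −log10 q of at least 10. Peaks sharing 1 bp overlapped, and 2 peaks that each overlapped no further peak of the opposite list formed a pair. The single library of each genotype allowed no test. Intervals are at the 95% level (exact Poisson for counts, exact Clopper-Pearson for shares and ratios of 2 pileups, order statistics for medians). They cover counting error or, for a median, the error from a limited number of pairs, not replicate error. No interval allows for the number of regions looked at.

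The spans and lists were chosen with earlier results of these data known. The regions named were those of the KRT5, KRT8 with KRT18 and KRT14 spans, the 5 highest pileups, the strong list-only regions with the 5 highest folds, and the 3 highest and 3 lowest pair ratios of each span and list, with the longest stretches without a peak and the densest and sparsest 50 kb bins. Others are said to be chosen after their values were seen. Gene names, gene order and promoter letters came from RefSeq tables of GRCh38.p14, and no hg19 annotation was used here, so regions were not assigned to genes beyond the named spans. Overlap and pairing were tested on simulated lists. Work was done in Python 3.11.15 with numpy 2.4.6, pandas 2.3.3 and scipy 1.17.1, and alternatives covered strength, overlap, depth, background and centring.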

Additional observations from a re-analysis of the deposited data

How the results depend on the processing

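Of 58 alternatives over 14 results, 35 stayed within 1.5 times (counts) or the 95% interval (shares and medians), 23 left these bounds and 0 reversed. The alternatives that leave out high background were chosen after the results were seen. Median log2 ratios stayed within their intervals throughout, from 0.17 to 0.20 in the type II span and from -0.06 to 0.07 in the type I span. Strong knockout-only peaks numbered 36 (type II) and 20 (type I) at a −log10 q of at least 5, 4 and 1 at 20, and 7 and 2 with the knockout scaled to the control's depth and equal numbers of peaks together (13 and 7 with equal numbers alone). Strong control-only peaks numbered 17 and 10 at 5 and 0 and 0 at 20. In the type II span they numbered 10 with 50% reciprocal overlap and 0 with no knockout peak within 1000 bp, and in the type I span 4 with depth scaling and equal numbers together, against 3 with equal numbers alone. A fold of at least 5 left, by construction, 32 knockout and 33 control peaks in the type II span and 31 of each in the type I span. A −log10 q of at least 10 left 55 knockout and 34 control peaks in the type II span and 41 knockout and 30 control peaks in the type I span. With 50% reciprocal overlap 59.2% of control type II peaks were shared, and with equal numbers of peaks 76.5% of knockout type I peaks. The cause was not tested for the others. Depth limits single pileups, whose intervals are wide, and 1 library per genotype limits every comparison. No paired analysis was possible because a genotype is represented by 1 library.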
